A study of Mus musculus with 4 samples.

Results

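The nuclei described here were picked from a single-nucleus RNA-seq survey of the mouse deep cerebellar nuclei by a rule on a handful of genes. A nucleus was a member if its rounded counts of Gad1 and Gad2, the enzymes that make GABA, summed to at least 2, if it had no count of Slc6a5 (the neuronal glycine transporter) or Pax2 (a transcription factor of inhibitory interneuron lineages), and if Sorcs3, Ptprk, Lypd6, Kit and Prkcd summed to at least 5 and to more than Oprk1, Bcl11a, Cntnap3 and Slit1 together. Nuclei listed in the submitters' separate vglut2 table were left out. The rule found 376 members among 1243 nuclei with at least 2 counts of Gad1 and Gad2 (30.2%), and among 21494 nuclei in all (1.75%). They were chosen as molecular layer interneurons. The data go against that name for most of them, so they are called the marker-gated nuclei.

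The tissue was micro-dissected from brain slices of C57BL/6J mice that carried Ai32, an allele that makes channelrhodopsin fused to EYFP in cells with Cre, and no sort of nuclei is recorded. Of the 4 libraries, 2 came from the line Tg[Ucn3-cre]KF31Gsat, which expresses Cre from urocortin 3 sequences, and are called Ucn3-Cre: replicate 1 from a female of 3 months, replicate 2 from a male of 3 months. The other 2 came from Tg(Slc17a6-icre)1Oki, which expresses Cre from sequences of the vesicular glutamate transporter Slc17a6, and are called vGluT2-Cre: replicate 1 from a male of 2 months, replicate 2 from a female of 2.5 months. Nuclei of Ucn3-Cre replicate 1 were extracted through an iodixanol gradient and those of the other libraries through a sucrose cushion, so both lines carry Cre and Ai32, the lines also differ in age, and there is no group without Cre. Values by library are given in this order throughout.

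Molecular layer interneurons are the stellate and basket cells of the cerebellar cortex, small GABAergic neurons that receive parallel fibre input and inhibit Purkinje cells and one another. In published atlases one kind carries Sorcs3, Ptprk and Lypd6 and another carries Nxph1 and Cdh22, and Kit, a receptor tyrosine kinase, marks the class in the cortex. The deep nuclei lie below the cortex in the white matter and hold GABAergic neurons of their own, among them the neurons that project to the inferior olive and glycinergic neurons.

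Each library held 4291 to 6587 nuclei with a median of 1730 to 3206 corrected counts. The marker-gated nuclei had medians of 5444, 4569, 5364 and 7352 counts, against 3991, 4279, 5378 and 7242 in the other Gad1/Gad2 nuclei. Of the deposited barcodes, 41 occur in more than 1 library, and 4 members carry such a barcode. Ucn3-Cre replicate 1 stood apart in the marker-gated nuclei by its vascular RNA. It was also the only library extracted through an iodixanol gradient, so library and extraction cannot be told apart. Summed over the list, endothelial markers stood at 1260, 35.2, 41.0 and 369 CPM (counts scaled to a total of 1000000 per sum), mural markers at 1367, 103, 16.7 and 164 CPM and fibroblast markers at 450, 2.62, 0.242 and 8.77 CPM. No endothelial, mural or fibroblast marker was at 0 in Ucn3-Cre replicate 1, and only 3, 3, 1 and 3 members had at least 5 vascular counts.

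The gate itself was passed mostly through 1 gene. Ptprk, a receptor tyrosine phosphatase, was counted in 330 members (87.8%), was the highest of the 5 markers in 259 and gave 59.1% of the marker counts, not corrected for gene length. Sorcs3, a sorting receptor, was counted in 208 members (55.3%) and was the highest in 69. Kit was counted in 126 (33.5%) and was the highest in 47. Prkcd, a protein kinase C, was counted in 33 (8.78%), and Lypd6, a modulator of nicotinic receptors, in 25 (6.65%). Of the 376 members, 147 had counts of a single marker, 153 of 2, 43 of 3, 25 of 4 and 8 of all 5. Ptprk was the only marker in 105 nuclei and Kit in 41. At the threshold, 83 members had a marker sum of exactly 5, and 79 nuclei that met the other terms lay just outside with a sum of 4.

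The Ptprk gene lies at chr10:28074820-28597397 on the plus strand (GRCm38, as for all positions here), Sorcs3 at chr19:48206025-48805505 and Kit at chr5:75574916-75656722, both on the plus strand. The deposited tables give 1 value per gene and nucleus, so that a count places no read in an exon or an intron. All 5 gate markers, the 4 genes set against them and Gad1, Gad2, Slc6a5 and Pax2 chose the members and are given only as a description.

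Zfhx3 and Zfhx4 divided the marker-gated nuclei into separate groups. These homeodomain transcription factors, known from the inhibitory neurons of the deep nuclei, took no part in the gate. Their summed counts were 0 to 2 in 134 members, 3 in none, 4 in 2 nuclei, 5 to 9 in 46 and 10 or more in 194. Of the 294 members with at least 4000 counts, 62 had 0 to 2, 6 had 3 to 5 and 226 had more than 5. The Zfhx-poor nuclei were 40.6, 35.9, 35.6 and 34.0% of the members by library, so each library held both groups in like shares. Their median was 3884 counts, against 6459 in the Zfhx-rich nuclei. This division was set after the counts were seen, and it is described without a test.

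**Figure D1:**
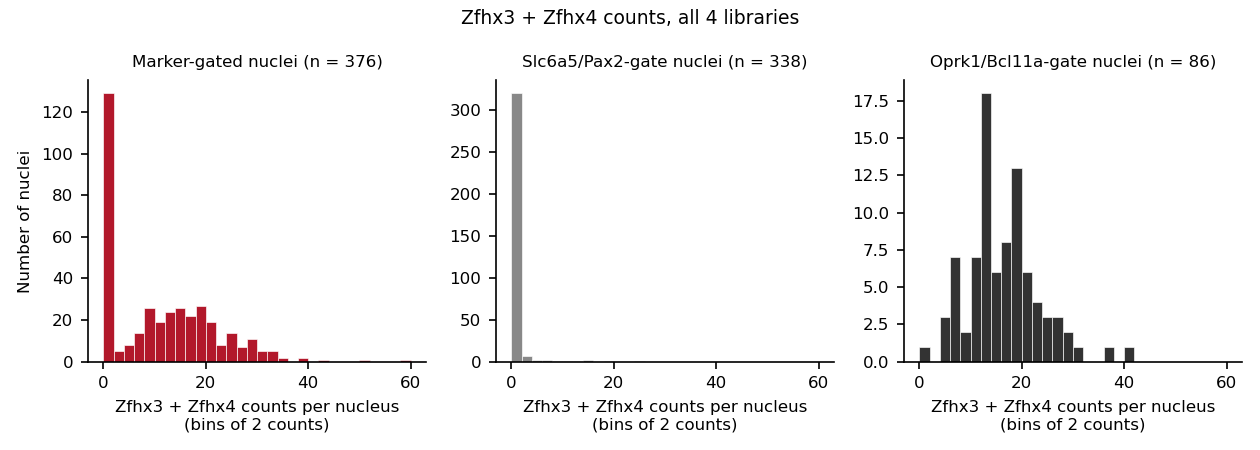
Histograms of nuclei (y axis) by summed Zfhx3 and Zfhx4 counts in bins of 2 (x axis) for the 376 marker-gated nuclei, the 338 Slc6a5/Pax2-gate nuclei and the 86 Oprk1/Bcl11a-gate nuclei. The marker-gated nuclei form a peak at 0 to 2 and a broad second group, and the other classes each fall mainly into 1 of these.

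Other inhibitory classes fell on one side of the same gap. Nuclei with at least 2 counts of Gad1 and Gad2 and any count of Slc6a5 or Pax2, here the Slc6a5/Pax2-gate nuclei, numbered 338, and 325 of them (96.2%) were Zfhx-poor. Nuclei with neither gene in which Oprk1 (the kappa opioid receptor), Bcl11a (a zinc finger transcription factor), Cntnap3 and Slit1 summed to at least 5 and to no less than the gate markers, here the Oprk1/Bcl11a-gate nuclei, numbered 86, and 85 of them (98.8%) were Zfhx-rich. The remaining 443 Gad1/Gad2 nuclei divided into 205 Zfhx-poor (46.3%) and 238 Zfhx-rich nuclei. The marker-gated nuclei thus held both kinds, 134 and 242.

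The gate genes were spread unevenly over the groups, which follows in part from the rule, since members with few counts of one marker passed through others. Kit was counted in 109 of the 134 Zfhx-poor members (81.3%) and in 17 of the 242 Zfhx-rich members (7.02%). Ptprk was counted in 241 of the Zfhx-rich members (99.6%) and in 89 of the Zfhx-poor ones (66.4%). Sorcs3 was counted in 56.7% and 54.5%, in groups of unequal depth, and within the Zfhx-poor members in 85.2% of those without Nxph1 and 27.3% of those with at least 2 counts of it. Tfap2b, a transcription factor of cerebellar GABAergic progenitors and interneurons, took no part in the gate and was counted in 42 Zfhx-poor members (31.3%) and in 3 Zfhx-rich ones (1.24%). Nearly all Zfhx-rich members thus had counts of Ptprk, a gene that the Oprk1/Bcl11a-gate nuclei carried at 552 ± 48.7 CPM (SD, n = 4 libraries).

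Nxph1, a secreted ligand of neurexins, divided the Zfhx-poor members again. It had no count in 61 of them, at least 2 in 66 and exactly 1 in 7. The nuclei without Nxph1 numbered 4, 9, 32 and 16 by library, with a median of 3620 counts, and those with at least 2 counts numbered 8, 15, 24 and 19, with a median of 4665. The Zfhx-rich members numbered 19, 50, 105 and 68. With so few nuclei, the values for the Zfhx-poor groups in Ucn3-Cre replicate 1 rest on 4 and 8 nuclei.

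**Figure D2:**
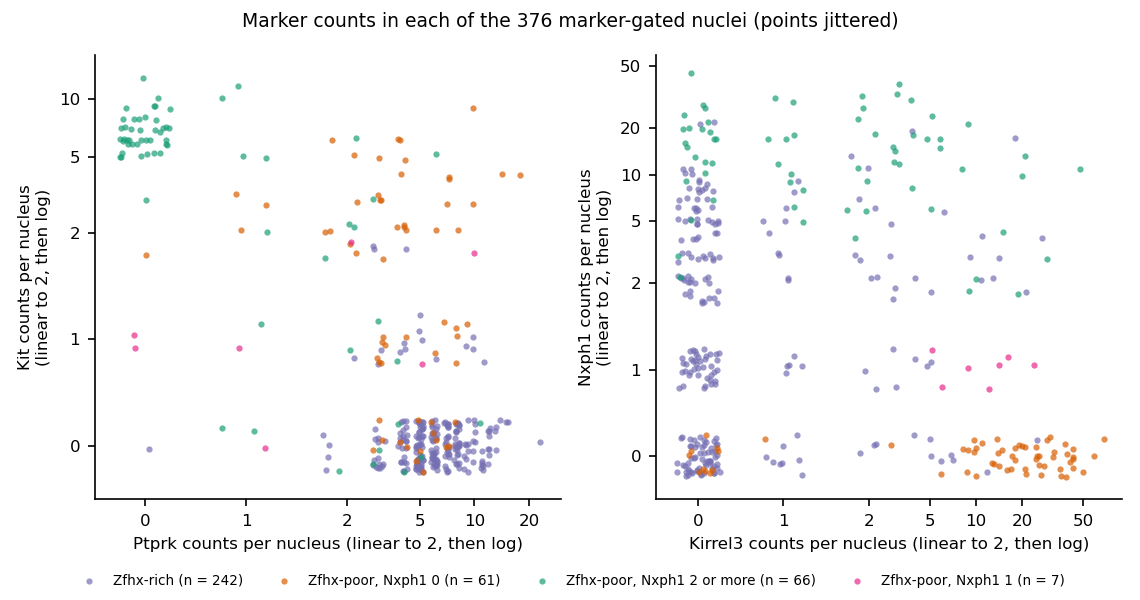
Counts per nucleus in the 376 marker-gated nuclei, Kit (y axis) against Ptprk (x axis) at left and Nxph1 (y axis) against Kirrel3 (x axis) at right, on axes linear to 2 and logarithmic above, with points jittered and coloured by population. Zfhx-rich nuclei (n = 242) lie along Ptprk with little Kit, Zfhx-poor nuclei with Nxph1 (n = 66) lie along Kit with mostly no Ptprk, and Zfhx-poor nuclei without Nxph1 (n = 61) carry Ptprk and, in most, Kirrel3.

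The 61 Zfhx-poor nuclei without Nxph1 had the most Sorcs3, Lypd6 and Prkcd of the 3 populations, though only 31.1% of them had a count of Lypd6 and 29.5% one of Prkcd. Sorcs3 stood at 971, 1846, 2131 and 1166 CPM in them, against means of 209 CPM in the Nxph1 nuclei and 150 CPM in the Zfhx-rich nuclei. Lypd6 stood at 199, 114, 145 and 180 CPM, with means of 12.5 and 2.64 CPM in the other groups. Prkcd, at 350, 37.5, 136 and 123 CPM, varied most between the libraries. Sorcs3, Lypd6 and Prkcd belong to the gate, so their levels among members depend in part on the rule and only describe these nuclei.

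Beyond the gate, the same 61 nuclei were rich in Rora and Kirrel3. Rora, a nuclear receptor lost in the staggerer mouse (chr9:68653786-69388246, plus strand), stood at 13524, 14624, 14325 and 11541 CPM. That is a mean of 13504 ± 1388 CPM (SD, n = 4), against 4214 ± 279 in the Nxph1 nuclei, 1490 ± 234 in the Zfhx-rich members, 2312 ± 310 in the Slc6a5/Pax2-gate nuclei and 1370 ± 227 in the Oprk1/Bcl11a-gate nuclei. No library of the first group overlapped with any of these 4 classes.

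Kirrel3, an adhesion protein of the immunoglobulin superfamily (chr9:34485894-35036716, plus strand), stood at 5210, 6559, 5590 and 4991 CPM in the nuclei without Nxph1. It stood at 389, 913, 757 and 956 CPM in the Nxph1 nuclei and at 441, 248, 177 and 70.0 CPM in the Zfhx-rich members. The lowest library of the nuclei without Nxph1 exceeded the highest of both groups and of the Slc6a5/Pax2-gate and Oprk1/Bcl11a-gate nuclei. The 7 Zfhx-poor members with exactly 1 count of Nxph1, which lie in 3 libraries, are in none of these groups. They numbered 1, 4 and 2 in Ucn3-Cre replicates 1 and 2 and vGluT2-Cre replicate 1. Kirrel3 stood at 3392, 5773 and 7405 CPM in them, in the range of the nuclei without Nxph1 or near it. Tfap2b stood at 0, 0 and 415 CPM. Pooled, Cdh22 had no count in them, beside 23.9 CPM without Nxph1. Grm8 and Lypd6 had none either, against 879 and 157 CPM without Nxph1. The 7 nuclei had a median of only 1873 counts, so the lack of Cdh22 or Lypd6 in them says little. Rgs6, at 971 CPM, lay between 183 CPM without Nxph1 and 2433 CPM with at least 2 counts.

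Ion channels and receptor partners differed as well. Cacna1d, a pore subunit of L-type calcium channels, had a mean of 1270 ± 194 CPM, against 368 ± 120 CPM in the Nxph1 nuclei and 429 ± 106 CPM in the Zfhx-rich members. Kcnip4, a subunit of A-type potassium channels, averaged 4854 ± 1791 CPM, but its 3841 CPM in vGluT2-Cre replicate 1 lay below the 3896 CPM of the Zfhx-rich members of Ucn3-Cre replicate 1, so the groups overlapped. Shisa6, an auxiliary subunit of AMPA receptors, stood at 554, 695, 657 and 469 CPM, with means of 113 and 23.2 CPM in the other groups. Grm8, a presynaptic metabotropic glutamate receptor, averaged 845 ± 241 CPM, against 68.2 and 80.1 CPM. Tfap2b stood at 405, 270, 270 and 248 CPM, and its highest library in the Nxph1 nuclei and the Zfhx-rich members was 82.9 CPM.

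The 66 Zfhx-poor nuclei with Nxph1 had the highest Kit, at 1441, 1055, 1069 and 935 CPM, against 252, 384, 675 and 507 CPM in the nuclei without Nxph1. Ptprk was low in them, at 53.7, 399, 121 and 212 CPM. Kit and Ptprk are gate markers, and a member with few counts of the other markers passes only through Kit. This pattern therefore follows in part from the rule. Cdh22, a classical cadherin (chr2:165111507-165234853, minus strand), stood at 674, 909, 568 and 651 CPM and was nearly missing from the nuclei without Nxph1, at 0 to 36.7 CPM. It overlapped with the Slc6a5/Pax2-gate nuclei, at 568, 729, 490 and 759 CPM. Rgs6, a regulator of G protein signalling, had a mean of 2674 ± 792 CPM in the Nxph1 nuclei and 2271 ± 185 CPM in the Slc6a5/Pax2-gate nuclei, and these overlapped. Ptprt, a receptor tyrosine phosphatase, stood at 992, 892, 629 and 1069 CPM, above the 430 to 562 CPM of the Slc6a5/Pax2-gate nuclei. Grm5, a postsynaptic metabotropic glutamate receptor, had a mean of 1780 ± 361 CPM, against 86.7 ± 69.2 in the nuclei without Nxph1. Klhl1, which this work lists among the markers of Golgi and Purkinje layer interneurons, averaged 403 ± 45.7 CPM in the Nxph1 nuclei and 14.9 ± 16.5 CPM in those without.

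The 242 Zfhx-rich nuclei were high in Cntn5, Chrm3, Ebf3 and Tenm3, as were the Oprk1/Bcl11a-gate nuclei. Cntn5, a contactin, stood at 1935, 3068, 3543 and 3057 CPM in them and at a mean of 2707 ± 401 CPM in the Oprk1/Bcl11a-gate nuclei, which overlapped. The Zfhx-poor groups had means of 277 and 109 CPM. Chrm3, a muscarinic acetylcholine receptor, stood at 266, 529, 561 and 483 CPM, against 448 ± 48.6 CPM in the Oprk1/Bcl11a-gate nuclei and at most 114 CPM in any library of the Zfhx-poor groups. Ebf3, a transcription factor of postmitotic neurons, averaged 310 ± 80.8 CPM, and Tenm3, a teneurin, 957 ± 396 CPM, both with overlap between these classes. For all 4 genes the lowest Zfhx-rich value was that of Ucn3-Cre replicate 1.

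Slc32a1, the vesicular GABA transporter, was at like levels in the 3 populations. It averaged 194 ± 75.0 CPM without Nxph1, 216 ± 47.7 with it and 186 ± 65.2 in the Zfhx-rich members, which overlapped. Pvalb, a calcium buffer of many fast-firing neurons, was lower in the Zfhx-rich members, with averages of 264 ± 70.7, 236 ± 45.6 and 86.9 ± 23.6 CPM in the same order.

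**Figure D3:**
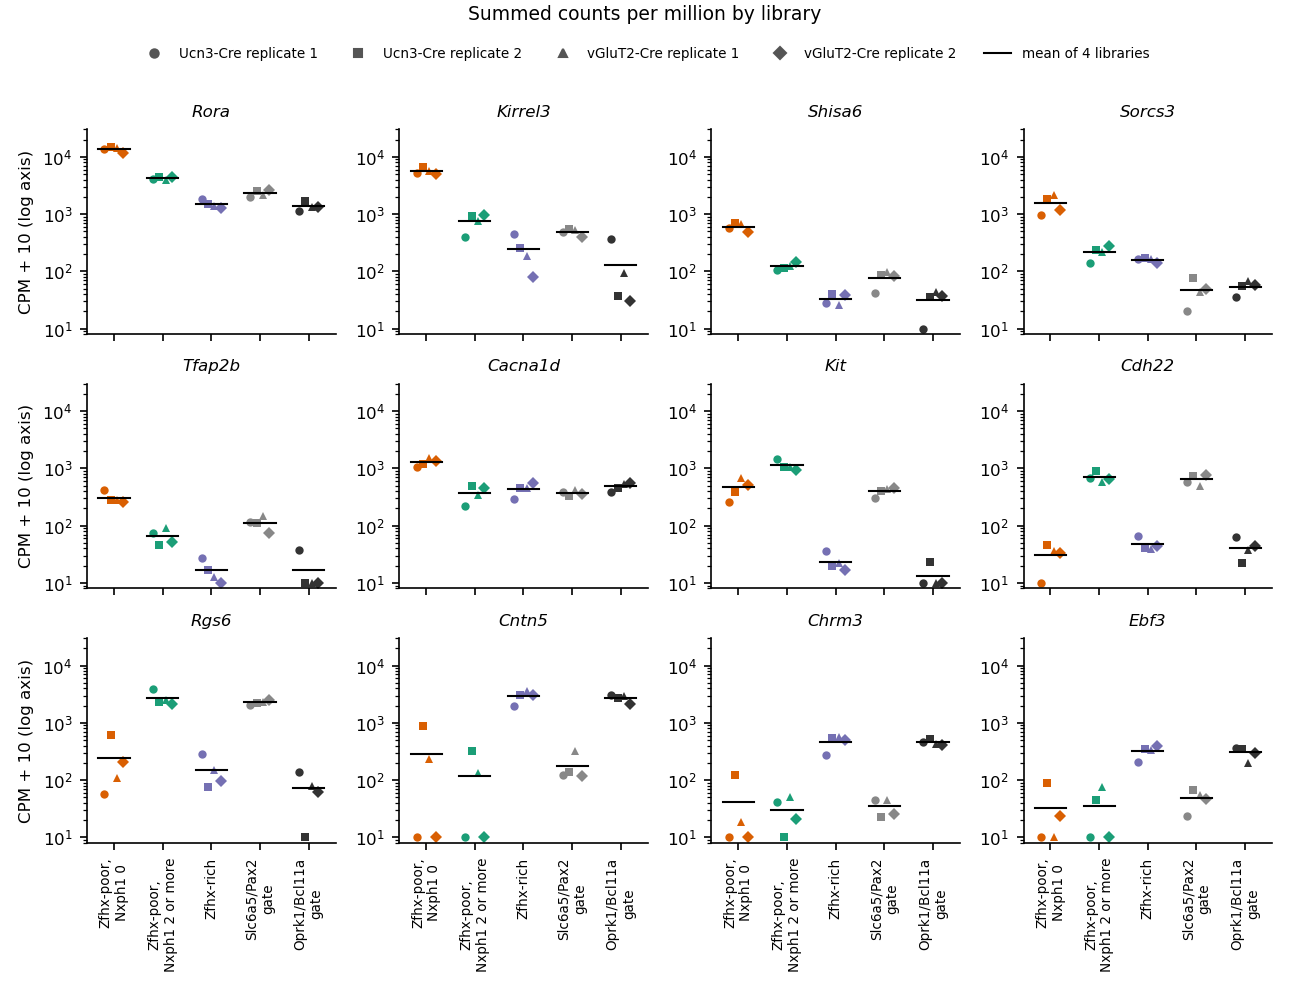
Level of 12 genes in CPM, plotted as CPM + 10 on a logarithmic axis, in the 3 populations of marker-gated nuclei and in 2 other inhibitory classes, with 1 point per library and a line at the mean of 4 libraries. Rora, Kirrel3, Shisa6 and Cacna1d are highest in Zfhx-poor nuclei without Nxph1, Cdh22 is high in those with Nxph1 and in Slc6a5/Pax2-gate nuclei, and Cntn5 and Chrm3 are high in Zfhx-rich members and in Oprk1/Bcl11a-gate nuclei.

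Across 6107 genes with at least 50 CPM in 1 of these 5 classes, 2 of the 3 populations had a close counterpart outside the gate. Zfhx-rich members and Oprk1/Bcl11a-gate nuclei had a Pearson r of 0.916 between log levels, and 3.90% of the genes lay over 2-fold apart. Zfhx-poor members with Nxph1 and Slc6a5/Pax2-gate nuclei had an r of 0.910, with 4.52% of the genes over 2-fold apart. Members without Nxph1 had no such counterpart among these classes. Their r was 0.735 with the Slc6a5/Pax2-gate nuclei, 0.711 with the Nxph1 nuclei and 0.672 with the Zfhx-rich members. In the same order 18.0, 19.7 and 19.8% of the genes lay over 2-fold apart. These correlations run over genes, which are not independent replicates, and over libraries that the classes share. Within single libraries the r of Zfhx-rich members with Oprk1/Bcl11a-gate nuclei ran from 0.597 to 0.942, and that of the Zfhx-poor groups with each other from 0.354 to 0.720. The r of members without Nxph1 with the Slc6a5/Pax2-gate nuclei ran from 0.498 to 0.741. These last ranges overlap, so which class is nearest to the members without Nxph1 is not settled.

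Several leading genes of the Zfhx-poor groups belong to glia. Of the 61 nuclei without Nxph1, 19 had at least 5 counts of oligodendrocyte or of astrocyte and Bergmann glia markers and 5 had as many vascular counts, and 41 had none of these. Their summed oligodendrocyte markers were 3248, 1677, 3327 and 7009 CPM, with none of the 6 genes at 0, against 11991 to 14599 CPM in nuclei without Gad1 and Gad2. Of the 66 nuclei with Nxph1, 18 had at least 5 such glial counts and 11 had at least 5 counts of oligodendrocyte precursor markers. Their summed precursor markers were 2475, 1993, 856 and 2287 CPM, with none of the 5 genes at 0 in any library.

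Levels were also computed without the nuclei that had at least 5 counts of a glial or vascular list. Mbp, Pdgfra and Sox6 are on those lists, so leaving these nuclei out lowers them by construction. Pooled over the libraries, Mbp (myelin basic protein) went from 949 CPM in all 61 nuclei to 74.6 CPM in the 41, and Neat1 (a nuclear long noncoding RNA) from 381 to 8.13 CPM. Kirrel3 went from 5476 to 6639 CPM and Rora from 13395 to 16857 CPM. In the nuclei with Nxph1, Sox6 (a transcription factor of oligodendrocyte precursors and interneurons) went from 245 to 8.87 CPM and Pdgfra (the growth factor receptor that marks these precursors) from 207 to 5.19 CPM. Cdh22 went there from 667 to 859 CPM and Rgs6 from 2433 to 3036 CPM. No doublet caller was run here, so nuclei that share a droplet with another cell remain among the members.

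Further markers of molecular layer interneurons, a list of 7 genes outside the gate, did not rise in the marker-gated nuclei as a whole. Sums of counts per library were compared with those of the 867 other Gad1/Gad2 nuclei by edgeR's quasi-likelihood test with Benjamini-Hochberg adjustment, with the library as block and without the 13 gating genes. In that comparison 340 of 10018 genes passed (3.39% of the genes tested), 147 higher (1.47%) and 193 lower (1.93%) in the members. Of the 6 tested markers of this list, 2 fell and none rose. Nxph1 (chr6:8948431-9249032, plus strand) stood at 743, 750, 743 and 622 CPM in the members and at 1187, 1499, 1988 and 1603 CPM in the others, a log2 fold change of -1.11 ± 0.12 (SE, adjusted p = 0.000192). Cdh22 fell by 1.57 on the log2 scale (adjusted p = 2.31e-05). Both genes mark the other kind of interneuron named above, not the kind with Sorcs3, Ptprk and Lypd6. The summed list stood at 3196, 3842, 3903 and 4249 CPM in the Slc6a5/Pax2-gate nuclei, which the rule bars from the members and leaves among the others. These falls therefore follow in part from the rule and do not test the name of the members. Tfap2b (-0.45, adjusted p = 0.398), Pvalb (-0.34, 0.174), Cnr1, the cannabinoid receptor (-0.35, 0.288), and Slc32a1 (-0.15, 0.672) did not pass. Gjd2, a neuronal gap junction protein, was counted in 1 library only and was not tested.

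These tests leave out the gating genes, but a gene that varies with a gating gene is not independent of the gate, and the classes are mixtures. The shift in a sum therefore cannot be told apart from a shift in the makeup of the class. For scale, the largest rises among the genes named by the rule were between 1.04 and 1.22 on the log2 scale, while the populations within the members lay much further apart. With the library as block, the p-values rest on how far the difference within a library varied over these 4 libraries. The number of genes past the threshold was 943 and 100 without Ucn3-Cre replicates 1 and 2, and 68 and 69 without vGluT2-Cre replicates 1 and 2. It was 151 with DESeq2, 65 without the library block, 64 with a marker sum of at least 8, 626 without glial nuclei and 762 without vascular nuclei.

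Among the genes that rose were several of the Zfhx-rich nuclei. Zfhx3 (chr8:107942644-108961630, plus strand) rose by 0.88 ± 0.14 on the log2 scale (adjusted p = 0.00205), and Zfhx4, Ebf1 and Ebf3 rose with it. Chrm3 stood at 206, 413, 424 and 365 CPM in the members and at 183, 171, 199 and 150 CPM in the others (log2 fold change 1.06 ± 0.15, adjusted p = 0.00098), with no overlap. Cdh8, a cadherin, rose by 1.04 ± 0.12 (adjusted p = 0.000281). Prkg1, the cGMP-dependent kinase downstream of nitric oxide, stood at 716, 364, 485 and 423 CPM, above 275, 207, 239 and 226 CPM (1.05 ± 0.12, adjusted p = 0.000192). Tox, a nuclear HMG box protein, rose by 1.11 and Adamts6, a secreted metalloproteinase, by 1.22, each in 4 of 4 libraries. Lrfn2, a synaptic adhesion protein, Plch2, a phospholipase C, Fam19a2, a secreted protein, and Arhgap31, a GTPase activator, rose by 1.04 to 1.06, but Arhgap31 was at -0.25 with a marker sum of at least 8. The vascular counts of Ucn3-Cre replicate 1 stood beside Ebf1, whose 630 CPM there compared with 213 to 263 CPM in the other libraries, and beside Cobll1 (178 against 25.9 to 58.4 CPM), and their part in these rises was not tested. Ebf1, at 1.16, and Cobll1, at 1.11, passed all the same.

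Some of the genes high in the nuclei without Nxph1 rose as well, although these were only 61 of the 376 members. Kirrel3 stood at 893, 882, 930 and 674 CPM in the members and at 419, 597, 456 and 316 CPM in the others (0.97 ± 0.11, adjusted p = 0.000257). Rora rose by 0.52 ± 0.11 (adjusted p = 0.0146). In both genes the members were higher in each library. Galnt18 (1.14, adjusted p = 0.0135) and Shisa6 (0.67, 0.0435) passed too, while Cacna1d (0.36, 0.117), Grm8 (0.68, 0.0916), Kcnip4 (0.16, 0.760) and Tfap2b did not.

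Among genes with at least 50 CPM in the higher class, the largest falls were in Hmga2, a chromatin architectural protein, Hcrtr2, an orexin receptor, and Mgat4c, a glycosyltransferase. Hcrtr2 stood at 18.4, 13.1, 32.8 and 11.6 CPM in the members and at 80.6, 87.9, 129 and 103 CPM in the others (-2.36 ± 0.21, adjusted p = 3.96e-05). Mgat4c stood at 332, 247, 481 and 284 CPM, against 1157, 1007, 1615 and 1025 CPM (-1.83 ± 0.11, adjusted p = 3.71e-07). Hmga2 fell by 2.90 on the log2 scale, from 48.9 to 65.7 CPM in the others to 0 to 32.2 CPM in the members. The other falls named by the rule were Ankfn1, Sncaip, Rerg, Coro6, Ddo, Rgs6, Lmo4 and Adcy2, with log2 fold changes of -1.74 to -1.42, in 4 of 4 libraries each.

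Receptors for the fast transmitters moved in part. Among 17 tested GABA and glycine receptor genes, 2 fell and none rose. Of 18 AMPA and kainate receptor and auxiliary genes, 3 rose (Cacng4, Neto2 and Shisa6) and 3 fell (Cacng3, Gria1 and Shisa9). Of 14 NMDA, delta and metabotropic receptor genes, 3 rose, Grm4 and Grm7 among them, and Grin2b fell by 0.52 on the log2 scale (adjusted p = 0.0118). The list medians were 0.00, 0.01 and 0.17 on the log2 scale, beside 0.01 over all genes tested. Over all genes tested 1.47% rose and 1.93% fell, the shares to set beside these list counts and those that follow.

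Among 37 potassium and HCN channel genes 8 fell and 3 rose. Kcnc2, a fast delayed rectifier of the Kv3 family, stood at 31.0, 69.4, 69.8 and 68.7 CPM, against 167, 145, 154 and 192 CPM in the others (-1.34 ± 0.16, adjusted p = 0.000257). Kcna1 and Kcnb2 fell by 0.99 and 1.02. Of 30 sodium and calcium channel genes, Cacna2d3, an auxiliary calcium channel subunit (388, 405, 524 and 372 CPM against 809, 883, 1139 and 937 CPM), and Ryr2, a release channel of internal calcium stores, fell, as did Fgf12. Cacna2d1, Itpr1 and Scn3a rose.

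Genes of adhesion and wiring went both ways, with 1 exception. All 4 axon guidance genes that passed, of 32 tested, were higher in the members (Efna5, Epha7, Plxna4 and Slit2), with log2 fold changes of 0.52 to 0.73. The synaptic organisers, 45 genes tested, had 4 higher (Adgrl2, Adgrl3, Cntn5 and Kirrel3) and 6 lower (Cntnap4, Dscaml1, Lrrc4c, Nxph1, Ptprt and Tenm4). The cadherins, 20 tested, had 2 higher and 3 lower. Among 31 transcription factors of inhibitory lineages, Ebf1, Ebf3, Rora, Zfhx3 and Zfhx4 were higher and Nfib, Nfix, Npas3, Tfap2a and Zfp521 lower.

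Neuromodulator receptors and release genes completed the lists. Of 19 receptors tested, 6 fell (Adra1b, Chrm2, Hcrtr2, Htr4, Htr7 and Oprd1) and 3 rose (Chrm3, Htr2c and Ramp3). Of 27 genes of transmitter release, Sv2c, Synpr and Syt2 fell and Stx1a, Syt9 and Unc13c rose. Sv2c, a synaptic vesicle protein, stood at 4.64, 7.42, 2.14 and 3.78 CPM against 47.1, 38.3, 34.4 and 26.7 CPM, a log2 fold change of -2.99 (adjusted p = 0.00034) below that level limit. None of the 7 genes of GABA synthesis, packaging and uptake and none of the 13 calcium buffers, peptides and gap junction genes passed. Over the distinct genes of all functional lists, 78 of 351 passed (22.2%), 35 higher and 43 lower, where 3.39% of all genes tested passed. The lists were chosen with earlier results of these data known, so this share is no measure of the gene families.

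**Figure D4:**
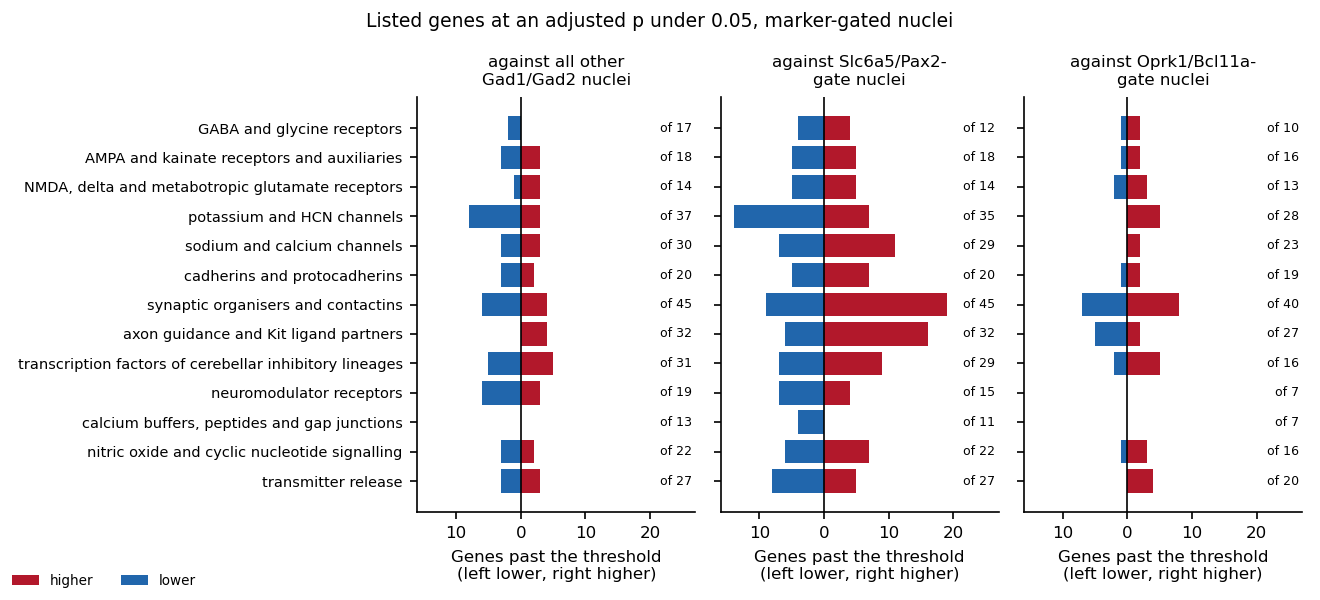
Number of genes past an adjusted p of 0.05 in each of 13 functional lists (rows), lower to the left and higher to the right of 0, when marker-gated nuclei are compared with all other Gad1/Gad2 nuclei, with Slc6a5/Pax2-gate nuclei and with Oprk1/Bcl11a-gate nuclei. The number at the right of each row is the number of genes tested, and the comparison with Slc6a5/Pax2-gate nuclei has the longest bars. Over all genes tested 3.39, 16.9 and 3.66% passed in these comparisons.

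Set against single classes, the members differed in opposite ways. Against the Slc6a5/Pax2-gate nuclei 1498 of 8858 genes passed (16.9%), 822 higher (9.28%) and 676 lower (7.63%). Against the Oprk1/Bcl11a-gate nuclei 185 of 5057 passed (3.66%), 114 higher (2.25%) and 71 lower (1.4%). The second comparison class has 7, 16, 31 and 32 nuclei, and fewer genes were tested. The first count was 947 and 867 without vGluT2-Cre replicates 1 and 2, and 913 without the library block. The second was 67 without vGluT2-Cre replicate 2 and 55 without the block. Both use the same member sums, so their values are given side by side. Rgs6 was at -2.19 on the log2 scale against the first class and at 3.03 against the second, Mgat4c at -2.65 and 2.83, Nfib at -1.79 and 2.36, and Cdh22 at -2.29 and 1.96. Chrm3 was at 3.99 and -0.22 (adjusted p = 0.64 in the second), Cntn5 at 3.84 and -0.21 (adjusted p = 0.50), and Zfhx3 at 4.73 and -0.35 (adjusted p = 0.087).

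Some genes were higher in the members against both classes. Kirrel3 was at 0.83 and 3.59 on the log2 scale, and Rora at 0.48 and 1.21 (adjusted p = 0.00873 and 3.3e-08). Both genes were high in the nuclei without Nxph1. Oligodendrocyte markers were higher in the members too, with 5 of 6 past the threshold against the Slc6a5/Pax2-gate nuclei and 3 of 5 against the Oprk1/Bcl11a-gate nuclei. Of all genes tested, 9.28 and 2.25% were higher in these comparisons. In Ucn3-Cre replicate 1 the summed oligodendrocyte markers were lower in the members, at 978 CPM against 1272 CPM in the Slc6a5/Pax2-gate nuclei. Against all other Gad1/Gad2 nuclei none of 6 passed, with a list median of 0.03 on the log2 scale. The part of glial RNA in the genes that moved with them was not tested.

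Against the Slc6a5/Pax2-gate nuclei whole groups of genes stood on different sides. Of 32 axon guidance genes, 16 were higher in the members, among them Robo1, Nrp1, Dcc and Plxna4, and 6 were lower, among them Unc5c and Ntn1. Of 35 potassium and HCN channel genes, 14 were lower, among them Kcna1 and Kcnc1, and 7 were higher. The 45 synaptic organisers had 19 higher and 9 lower. Among GABA and glycine receptors 4 subunits were lower, among them Gabrb2 and Gabrd, and Gabra3, Gabrb1, Gabbr1 and Gabbr2 were higher, of 12 tested. Of the 6 tested genes in the list of further molecular layer interneuron markers, 5 were lower in the members (Cdh22, Cnr1, Nxph1, Pvalb and Tfap2b). Over the distinct genes of the functional lists 188 of 332 passed (56.6%), where 16.9% of all genes tested passed. Against the Oprk1/Bcl11a-gate nuclei 63 of 260 passed (24.2%), where 3.66% of all genes tested did. The lists were chosen with earlier results of these data known.

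Dividing all members by Nxph1 alone, without regard to Zfhx3 and Zfhx4, set 66 Zfhx-poor and 109 Zfhx-rich nuclei with at least 2 counts against 61 and 80 with none. By edgeR's quasi-likelihood test with Benjamini-Hochberg adjustment 36 of 4764 genes passed (0.756%), 15 higher (0.315%) and 21 lower (0.441%) with Nxph1. Cdh22 stood at 267, 292, 170 and 220 CPM with Nxph1 and at 22.0, 43.9, 19.7 and 28.4 CPM without (log2 fold change 2.96 ± 0.26, adjusted p = 0.00079). Ptprt rose by 3.33 ± 0.32 (adjusted p = 0.00107) and Rgs6 by 2.33. The nuclei without Nxph1 were higher in Galnt18, a glycosyltransferase of O-linked glycans (-3.05 ± 0.32, adjusted p = 0.00181), in Kirrel3 (-1.95, 0.00425) and in Tfap2b (-2.06, 0.0226). Rora lay near the threshold, at -1.02 (adjusted p = 0.0417). The count was 178 and 10 without Ucn3-Cre replicates 1 and 2, and 6 and 4 without vGluT2-Cre replicates 1 and 2, and the test compares mixtures of the Zfhx-poor and Zfhx-rich populations. Sox6 rose by 3.06 with Nxph1 and Mbp was among the genes higher without it, beside the glial counts given above, and their part was not tested.

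The share of marker-gated nuclei was lower in both Ucn3-Cre libraries. They were 32 of 153 Gad1/Gad2 nuclei (20.9%, exact 95% Clopper-Pearson interval 14.8 to 28.2%), 78 of 336 (23.2%, 18.8 to 28.1%), 163 of 468 (34.8%, 30.5 to 39.3%) and 103 of 286 (36.0%, 30.4 to 41.9%). The intervals cover counting error only. The line means were 22.1 ± 1.63% and 35.4 ± 0.84% (SD, n = 2), a difference of -13.4 percentage points. A two-sided exact permutation test gave p = 0.333, the smallest that 2 libraries against 2 can give. With a marker sum of at least 8 the shares were 5.23, 5.65, 17.3 and 21.3%, so the line means lay further apart as a ratio (5.44 and 19.3%), at a difference of -13.9 points. The lines also differ in age, so line and age cannot be told apart.

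Thinning lowered the share in every library. With every nucleus thinned to 3000 counts and the gate applied again, the shares were 11.0, 7.33, 12.8 and 19.1%. The difference between the line means was -6.81 points. These means were 9.14 and 16.0%, against 22.1 and 35.4% before thinning, so as a ratio they lay no nearer. Thinning left out 33, 75, 54 and 21 shallower Gad1/Gad2 nuclei. Thinned, the share of Ucn3-Cre replicate 1 lay close to that of vGluT2-Cre replicate 1 and within its interval of 9.28 to 17.1%. That of Ucn3-Cre replicate 2 lay below this interval. Before thinning, both populations were less common in Ucn3-Cre: the Zfhx-poor members were 8.50, 8.33, 12.4 and 12.2% of the Gad1/Gad2 nuclei and the Zfhx-rich members 12.4, 14.9, 22.4 and 23.8%.

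**Figure D5:**
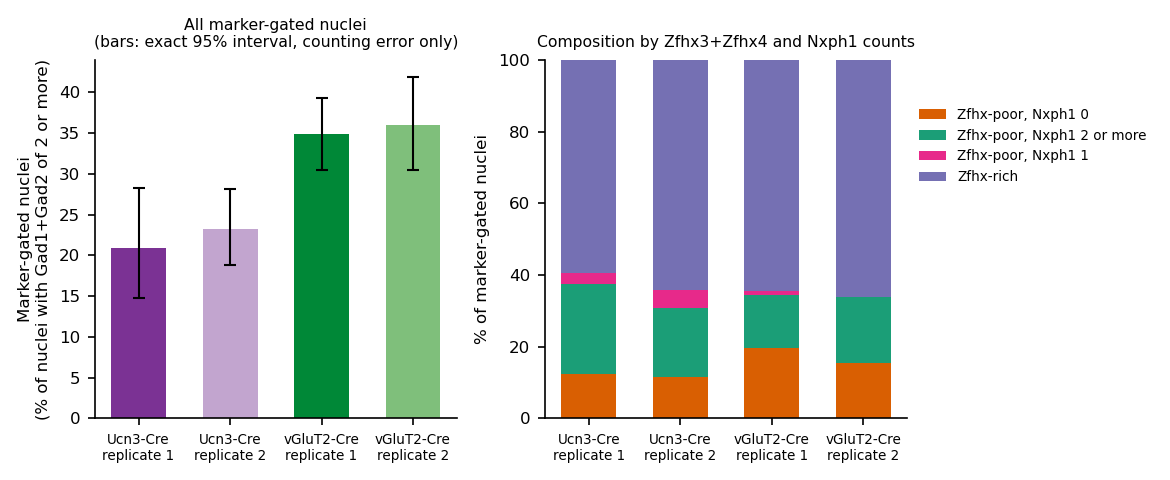
At left, marker-gated nuclei as a percentage of Gad1/Gad2 nuclei in each library (y axis), with exact 95% intervals. At right, the makeup of the members in each library as stacked percentages by population. The Ucn3-Cre libraries lie at 20.9 and 23.2% and the vGluT2-Cre libraries at 34.8 and 36.0%, while Zfhx-rich nuclei make up 59.4 to 66.0% of the members in every library.

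No gene of the marker-gated nuclei differed between the lines by edgeR's quasi-likelihood test with Benjamini-Hochberg adjustment, with 0 of 9054 genes past the threshold (0.0%). At an unadjusted p under 0.05 there were 229 genes, and DESeq2 gave 0 as well. The smallest p-values among genes counted in every library were those of Itga9, an integrin subunit (95.8 and 84.1 CPM in Ucn3-Cre, 11.9 and 31.2 CPM in vGluT2-Cre), and Map3k19, a kinase (12.2 and 9.75 CPM, 43.0 and 49.7 CPM). Csrp1, Ltbp4 and Pde3a followed, and Ltbp4 rested on 1 library, at 264 and 22.5 CPM in Ucn3-Cre. None of these passed, with adjusted p = 1.00. Without Ucn3-Cre replicate 2, which leaves 1 library in that line, 190 genes passed, and 34 passed without vGluT2-Cre replicate 1. The summed mitochondrial transcripts of the members stood at 9860, 559, 592 and 1833 CPM by library. They were highest in Ucn3-Cre replicate 1, the library extracted through an iodixanol gradient. Their list median was 2.14 on the log2 scale between lines and 3.18 between sexes, with none of 10 genes past the threshold, and their part in the line and sex results was not tested.

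Between the sexes, 7 of 9054 genes passed (0.0773%), 4 higher (0.0442%) and 3 lower (0.0331%) in the female libraries, and 5 of them lie on the sex chromosomes. Xist, the RNA of the inactive X chromosome, stood at 2378 and 2312 CPM in the female libraries and at 0 in the male ones, and its antisense partner Tsix at 115 and 85.7 CPM and at 0. The labels do not say that strand was used in counting, so these reads cannot be told apart. Of the Y-linked genes, Eif2s3y stood at 222 and 249 CPM in the males, Uty at 172 and 210 CPM and Kdm5d at 64.0 and 85.0 CPM, and all were at 0 in the females, as the labelled sexes have it. The other genes were Ccdc141 (83.6 and 82.5 CPM against 4.52 and 6.65 CPM) and Slco1a4, an endothelial transporter (187 and 102 CPM against 8.57 and 12.1 CPM). Slco1a4 moved with the endothelial list, which was higher in both female libraries, at 1260 and 369 CPM against 35.2 and 41.0 CPM, and its part in the result was not tested. The count was 15 and 143 without Ucn3-Cre replicates 1 and 2, 18 and 345 without vGluT2-Cre replicates 1 and 2, and 34 with DESeq2. No gene of the functional lists passed in the full comparison.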

How the data were processed

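Nuclei of 4 libraries were profiled on the 10x Genomics platform. Cell Ranger 3.1.0, Seurat 3.2 and the build mm10 are named in the submitters' processing notes. In the tables the authors deposited, each value is an expected count, not scaled to depth, since 97.2 to 98.8% of those above 0 lie within 0.5 below a whole number, and the step that made them so is not given in the sources used here. They were rounded per nucleus for the gate, and summed per library and class, then rounded, for tests. CPM are sums scaled to 1000000. Sums were tested by the quasi-likelihood test of edgeR 4.0.16 (TMM factors, genes kept by filterByExpr, Benjamini-Hochberg adjustment over all genes tested, threshold 0.05), class comparisons with the library as block, lines and sexes 2 against 2. DESeq2 1.42.0 was an alternative. Members, gene lists and marker lists were chosen with earlier results of these data known. On simulated data, changes were planted in a sample of the better counted genes, at a fixed dispersion not estimated from these data and without library effects. The comparison with other nuclei, with 9880 genes tested, recovered 51% of planted 2-fold and 94% of 4-fold changes. That of lines, with 8945 genes tested, recovered 17% and 78%. Recovery in the real data may differ.

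Named genes were the 12 largest rises and 12 largest falls at an adjusted p under 0.05, the same direction in 4 of 4 libraries and at least 50 CPM in the higher class, up to 4 genes per functional list and the other interneuron markers. For lines, sexes and the Nxph1 split they were up to 10 genes past the threshold, or the 5 smallest p-values. The populations by Zfhx3, Zfhx4 and Nxph1 and their leading genes were chosen after seeing the data, as were genes named beyond this rule. No doublet caller was run; instead, nuclei with at least 5 glial or vascular marker counts were left out as alternatives. Other alternatives were size factors, low-count filters, depth, a marker sum of at least 8, and leaving out each library. Positions are from GENCODE on GRCm38. Single values of some genes are not reported here.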

Additional observations from a re-analysis of the deposited data

Results flagged for a closer look

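In groups of 4 libraries, 9 of 78 values checked stood apart from the other 3 libraries by Dixon's 95% criterion, which chance meets in about 1 in 20 groups. In Ucn3-Cre replicate 1 the marker-gated nuclei held summed Purkinje markers at 407 CPM (153 to 189 in the others), mural markers at 1367 CPM and fibroblast markers at 450 CPM. The same library was apart in the log2 difference of the members from other Gad1/Gad2 nuclei for Chrm3 (0.16, others 1.06 to 1.22), Cntn5 (-0.051, others 1.05 to 1.26), Nfib (-0.46, others -1.36 to -1.21) and Itpr1, an intracellular calcium channel abundant in Purkinje cells (1.54, others 0.39 to 0.51). Kirrel3 was apart in Ucn3-Cre replicate 2 (0.56, others 1.01 to 1.07). Gjd2 was counted only in vGluT2-Cre replicate 1, with a difference of -0.12. The part of the 32 nuclei of Ucn3-Cre replicate 1, or of the vascular counts in them, in these values was not tested. Only this library was extracted through an iodixanol gradient, so library and extraction cannot be told apart.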

How the results depend on the processing

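The comparison with other Gad1/Gad2 nuclei gave 340 genes, 68 to 943 with 1 library left out (943 and 100 without Ucn3-Cre replicates 1 and 2, 68 and 69 without vGluT2-Cre replicates 1 and 2), 151 with DESeq2, 64 with a marker sum of at least 8, 626 without glial and 762 without vascular nuclei (the last chosen after seeing the data). Without the replicate block the counts were 65 there, 913 of 1498 against Slc6a5/Pax2-gate nuclei and 55 of 185 against Oprk1/Bcl11a-gate nuclei. Leaving out a library gave 867 to 1880 in the second (947 without vGluT2-Cre replicate 1, 867 without vGluT2-Cre replicate 2), 67 to 210 in the third (67 without vGluT2-Cre replicate 2) and 4 to 178 for the Nxph1 split (36 in full, 178 and 10 without Ucn3-Cre replicates 1 and 2, 6 and 4 without vGluT2-Cre replicates 1 and 2). Between lines, 0 genes became 0 to 190 with a library left out (190 without Ucn3-Cre replicate 2, 34 and 1 without vGluT2-Cre replicates 1 and 2) and 135 with no filter. Between sexes, 7 genes became 15 to 345 (15 and 143 without Ucn3-Cre replicates 1 and 2, 18 and 345 without vGluT2-Cre replicates 1 and 2), 54 with the replicate block, 30 over genes counted in every library (chosen after seeing the data), 34 with DESeq2, 226 with no filter and 3 with a marker sum of at least 8. With a library left out of these, 1 arm has a single sample, assumed to vary like the other. Same-numbered libraries of the lines share only a number: their deviations correlated at -0.15 over 9065 genes, and neither the replicate block nor the crossed pairing gave a line call (0 each). Arhgap31 turned from 1.04 to -0.25 on the log2 scale with a marker sum of at least 8. The cause of these shifts was not tested. The share difference of -13.4 points was -14.5 to -12.2 with a library left out, and -13.1 to -14.9 under the depth, glial, vascular and marker sum settings; with a marker sum of at least 8 the line means were 5.44 and 19.3%, against 22.1 and 35.4% in full. As a share of all nuclei it was -1.51 points (0.965 and 2.48%), and thinned -6.81 (9.14 and 16.0%).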

Other observations

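Mitochondrial transcripts were higher in the marker-gated nuclei than in the Oprk1/Bcl11a-gate nuclei for 5 of 7 genes tested (mt-Atp6, mt-Co2, mt-Co3, mt-Cytb and mt-Nd4). Over all genes tested there, 2.25% were higher. The list median was 1.77 on the log2 scale beside -0.01 over all genes tested. Against the Slc6a5/Pax2-gate nuclei 1 of 9 was higher, where 9.28% of all genes tested were, with a list median of 0.89. Against all other Gad1/Gad2 nuclei none of 10 passed, with a list median of 0.31. These comparisons use the same member sums. The summed list stood at 9860, 559, 592 and 1833 CPM in the members and at 0, 464, 621 and 643 CPM in the Oprk1/Bcl11a-gate nuclei, so that the widest gap lay in Ucn3-Cre replicate 1, where the second class has 7 nuclei, and in vGluT2-Cre replicate 1 the members were lower.

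Markers of Golgi and Purkinje layer interneurons, the other inhibitory cells of the granular side of the cortex, were lower in the marker-gated nuclei as a whole, but not in each population. Of 4 tested against the other Gad1/Gad2 nuclei, Aldh1a3, Klhl1 and Lgi2 fell, where 1.93% of all genes tested fell. The summed list of 8 genes stood at 232, 252, 256 and 255 CPM in the members and at 426, 473, 585 and 527 CPM in the others, without overlap. The rule bars the Slc6a5/Pax2-gate nuclei from the members and leaves them among the others. In them the list stood at 655, 740, 792 and 835 CPM, so the fall follows in part from the rule. Within the members the list stood at 649, 606, 531 and 582 CPM in the Zfhx-poor nuclei with Nxph1. It stood at 81.1, 112, 105 and 98.6 CPM in those without, and at 175, 197, 234 and 207 CPM in the Zfhx-rich members. Purkinje cell markers had 1 gene of 4 higher, Itpr1, where 1.47% of all genes tested rose. Their summed list stood at 407, 189, 153 and 175 CPM in the members and at 121, 134, 120 and 146 CPM in the others.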
